A study of Camelus dromedarius with 10 samples.

Results

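The growth kinases described here are 9 genes whose products link nutrient, growth factor and energy signals to protein synthesis: MTOR, the S6 kinases RPS6KB1 and RPS6KB2, PDPK1, AKT1, AKT2, and the AMP-activated protein kinase (AMPK) genes PRKAA1 and PRKAA2 with their activator STK11. They were chosen by name, and each was found in the gene counts through the Ensembl ID that the study's supplementary tables pair with its symbol. All 9 of the 9 had an ID among the 22444 in the counts, and all 9 were among the 14432 genes with enough counts to be tested. RNA came from the rostral supraoptic nucleus (SON) of male dromedary camels, 4 to 5 years old and kept on a ranch, in which 5 control animals drank freely and 5 water-deprived (WD) animals had food but no water for 20 days. Each library is the punched SON of 1 side of 1 camel, sequenced after removal of ribosomal RNA.

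The kinase mTOR works in large protein complexes. In the complex with raptor it phosphorylates the S6 kinases and the 4E-BP inhibitors of translation, and it is switched on at the lysosome by the small GTPase Rheb. AKT is phosphorylated by PDK1, the product of PDPK1, and by mTOR in its other complex, after phosphoinositide 3-kinase (PI3K) has made the lipid that recruits it to the membrane. AMPK, activated by LKB1 (the product of STK11) when AMP rises against ATP, restrains mTOR signalling. The magnocellular neurones of the SON, which make vasopressin and oxytocin, enlarge and synthesise more peptide when an animal lacks water. The activity of these kinases is set mainly by phosphorylation, which RNA counts do not measure.

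Total counts ranged from 1665098 to 7518432 in control and from 4227685 to 8126641 in WD libraries. A group of 5 gene IDs took 27.7% to 76.1% of a library, so that after normalization 1 count came to 1.196 CPM (counts scaled to a common library size) in control library 13 (CON13) and 0.475 CPM in WD library 6 (WD6), against 0.0864 to 0.237 CPM elsewhere. The hypothalamic neurone markers OTP, SIM1, TRH and PDYN were counted in all 10 libraries, GAL and CRH had 16 and 33 counts in all, and vasopressin and oxytocin were not analysed here. Of the 4 tested, the neuropeptide gene PDYN rose (log2 fold change 1.93, edgeR adjusted p = 0.000302), while OTP (-0.58), TRH (-0.37) and SIM1 (-0.04) did not pass the test (list median -0.20). Their summed level was 206 to 353 CPM in control and 538 to 901 CPM in WD libraries, of which PDYN alone made up 114 to 227 and 439 to 761 CPM. The other 3 overlapped between the groups. The 4 microglia markers were all higher in WD camels without passing the test (median log2 fold change 0.68), with a summed level of 134 to 208 CPM in control and 139 to 453 CPM in WD libraries. Endothelial markers were higher in 5 of 6 cases (median 0.41, 114 to 188 against 141 to 270 CPM) and oligodendrocyte markers in 2 of 7 (median -0.08, 119 to 306 against 115 to 248 CPM), and none of them passed the test. The summed markers of other neurones were 24.2 to 38.2 CPM in control and 17.1 to 37.2 CPM in WD libraries (median of the 3 tested -0.04). In such bulk samples, fewer cells of a type and less RNA per cell cannot be told apart.

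None of the 9 growth kinases passed the test between WD and control camels. By edgeR's quasi-likelihood F test, adjusted over all 14432 genes after Benjamini and Hochberg, the p-values of the 9 lay between 0.775 and 0.983. At the threshold of 0.05 on the adjusted p, 0.499% of all genes tested passed, 0.27% higher and 0.229% lower in WD, so that a list of 9 genes without a call is no departure from the background. At an unadjusted p of at most 0.05, again 0 of the 9 passed, against 9.31% of all genes. DESeq2's Wald test called 0 of the 9 and 1.27% of the genes for which it gave an adjusted p. The libraries of the WD and control groups overlapped for each of the 9, and did not overlap for 2.62% of all genes.

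The differences were small in size as well as unsupported by the test. On the log2 scale 4 kinases were higher and 5 lower in WD, with a median of -0.03 against 0.02 over all genes tested, and the median size without regard to sign was 0.10 against 0.22. The 95% interval of the fold change lay within 2-fold in either direction for 9 of 9 kinases (66.2% of all genes tested) and within 1.5-fold for 5 of 9 (21.3% of all genes). The interval reached 0.32 to either side on the log2 scale in the narrowest case, MTOR, and 0.62 in the widest, PRKAA2, with a median of 0.49 against 0.55 over all genes. All genes tested were not matched to the kinases in counts: their totals began at 73, and those of the kinases were 821 to 6382. The part of depth in these comparisons was not tested.

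**Figure D1:**
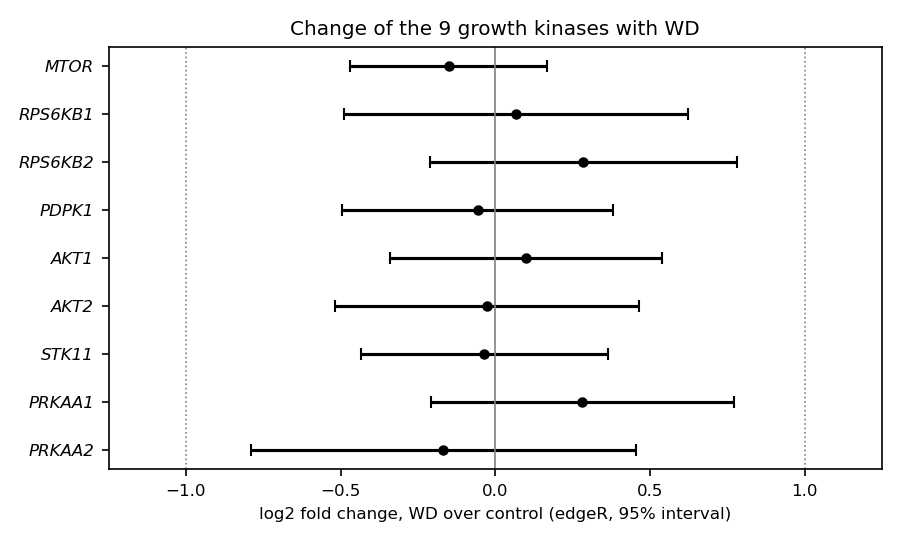
Log2 fold change of each of the 9 growth kinases, WD over control, from edgeR's fit to 5 libraries a group, with its 95% interval as a bar. Dotted lines mark a 2-fold change. Every interval crosses 0 and lies inside the dotted lines, and the narrowest is that of MTOR, from -0.47 to 0.17.

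MTOR (ENSCDRG00005016546) encodes the catalytic subunit that the pathway is named for. Its level was 100.3, 134, 111, 124 and 108 CPM in control libraries CON2, CON3, CON4, CON5 and CON13, and 106, 111, 102, 106 and 94.2 CPM in WD libraries WD6, WD7, WD8, WD9 and WD15. The library order is the same for every gene below. Of the WD libraries, 4 lay below the control median of 111 CPM, yet none lay outside the reach of the controls except WD15, which was the lowest of all 10. The means were 115 ± 13.5 CPM (SD, n = 5) and 104 ± 6.29 CPM (SD, n = 5), a log2 fold change of -0.15 (SE 0.151, 95% interval -0.47 to 0.17, edgeR adjusted p = 0.825). In fold terms the interval runs from 0.723 to 1.12.

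MTOR was also among the least variable genes of these libraries. The standard deviation of its log2 CPM within groups was 0.13, and 0.651% of the genes tested had a smaller one, where the median gene had 0.45. STK11 came next among the kinases at 0.20 (4.59% of genes smaller), and the other 7 lay between 0.32 and 0.60. MTOR had the most counts of the 9 kinases, 6382 over the 10 libraries against 821 to 3376 for the others, and the part of depth in its small spread was not tested. Among 2271 tested genes with a symbol from the study's functional catalogue, the 3 with the profile most like MTOR over the 10 libraries were PTPRS, a receptor tyrosine phosphatase, MFN2, a GTPase of mitochondrial fusion, and EIF2AK1, a kinase of the translation factor eIF2. Their root mean square distance from MTOR in centred log2 CPM was 0.09, 0.10 and 0.11, against 0.48 for the median gene. Because MTOR itself varied little, this measure favours other genes of small spread, and it does not show a shared pattern of change.

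RPS6KB1 and RPS6KB2 encode the S6 kinases that mTOR phosphorylates. RPS6KB1 (ENSCDRG00005005247) was at 20.3, 20.8, 29.4, 17.0 and 10.8 CPM in control and at 9.02, 25.3, 23.5, 24.4 and 22.9 CPM in WD libraries. The shallow libraries CON13 and WD6 were the lowest of their groups, and the other 4 WD libraries lay close together inside the range of the controls. The log2 fold change was 0.07 (SE 0.264, 95% interval -0.49 to 0.62, edgeR adjusted p = 0.966), from 19.6 ± 6.75 to 21.0 ± 6.76 CPM (SD, n = 5 each).

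RPS6KB2 (ENSCDRG00005011373) was at 12.2, 14.0, 11.0, 12.9 and 21.5 CPM in control and at 22.8, 15.9, 12.6, 13.6 and 19.0 CPM in WD libraries. Here CON13 and WD6 were the highest of their groups, opposite to their place for RPS6KB1, and 4 of 5 WD libraries lay above the control median. The means were 14.3 ± 4.17 and 16.8 ± 4.16 CPM (SD, n = 5 each), with a log2 fold change of 0.28 (SE 0.236, 95% interval -0.21 to 0.78, edgeR adjusted p = 0.777).

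PDPK1 and the AKT genes carry the signal from PI3K. PDPK1 (ENSCDRG00005016560) was at 17.5, 29.6, 25.5, 29.1 and 19.1 CPM in control and at 16.6, 26.8, 22.6, 28.1 and 22.7 CPM in WD libraries. The groups overlapped over nearly their whole range, with means of 24.2 ± 5.60 and 23.4 ± 4.49 CPM (SD, n = 5 each). Its log2 fold change was -0.06 (SE 0.208, 95% interval -0.49 to 0.38, edgeR adjusted p = 0.964).

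AKT1 (ENSCDRG00005000405) was at 61.5, 67.9, 58.4, 53.4 and 63.4 CPM in control and at 107, 54.6, 50.7, 48.7 and 68.3 CPM in WD libraries. A single library, WD6, stood above all others, and 3 of the other 4 WD libraries lay below the control median. This raised the WD mean to 65.8 ± 24.2 CPM against 60.9 ± 5.42 CPM in control (SD, n = 5 each), with a log2 fold change of 0.10 (SE 0.209, 95% interval -0.34 to 0.54, edgeR adjusted p = 0.938). Without WD6 the log2 fold change was -0.13 (edgeR adjusted p = 0.742), the lowest adjusted p among the alternatives for AKT1, which reached 1.0.

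AKT2 (ENSCDRG00005010340), best known for its part in insulin-stimulated glucose uptake, was at 29.9, 31.0, 18.4, 29.7 and 16.7 CPM in control and at 25.2, 17.6, 23.8, 23.2 and 37.1 CPM in WD libraries. Control libraries fell into a higher set of 3 and a lower set of 2, WD15 was the highest of all 10, and the other 4 WD libraries lay below the control median. The means were 25.1 ± 6.97 and 25.4 ± 7.16 CPM (SD, n = 5 each) and the log2 fold change was -0.03 (SE 0.233, 95% interval -0.52 to 0.46, edgeR adjusted p = 0.983).

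**Figure D2:**
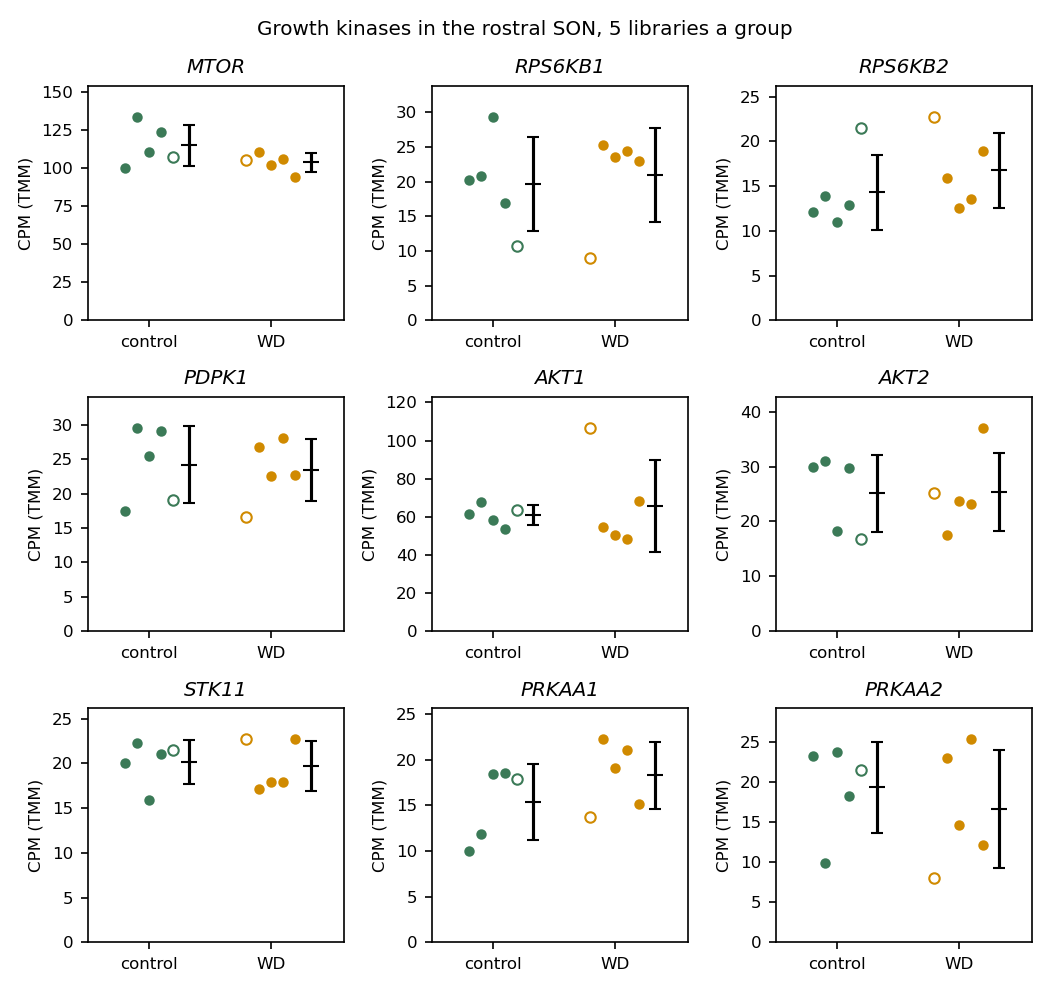
CPM after TMM normalization of each of the 9 growth kinases in every library (points; open for the shallow libraries CON13 and WD6), with the mean and SD of each group as a black bar (n = 5), on axes that start at 0. The groups overlap in every panel, and the points of MTOR, from 94.2 to 134 CPM, are the closest together in relation to their level.

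STK11 and the AMPK catalytic subunits form the energy-sensing side of the pathway. STK11 (ENSCDRG00005012564) was at 20.1, 22.2, 15.9, 21.1 and 21.5 CPM in control and at 22.8, 17.1, 18.0, 17.9 and 22.7 CPM in WD libraries. In WD, 2 libraries lay just above every control and 3 below all controls but CON4, and the means of 20.2 ± 2.49 and 19.7 ± 2.81 CPM (SD, n = 5 each) differed by less than either spread. The log2 fold change was -0.03 (SE 0.190, 95% interval -0.44 to 0.37, edgeR adjusted p = 0.974).

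PRKAA1 (ENSCDRG00005016610), the AMPK α1 catalytic subunit, was at 10.0, 11.8, 18.5, 18.6 and 17.9 CPM in control and at 13.8, 22.3, 19.1, 21.1 and 15.2 CPM in WD libraries. The lowest libraries were the controls CON2 and CON3, and the highest were WD7, WD9 and WD8, while the other 3 controls lay above the other 2 WD libraries. The means were 15.4 ± 4.11 and 18.3 ± 3.70 CPM (SD, n = 5 each), with a log2 fold change of 0.28 (SE 0.232, 95% interval -0.21 to 0.77, edgeR adjusted p = 0.775, the smallest of the 9).

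PRKAA2 (ENSCDRG00005013407), the α2 catalytic subunit, was at 23.3, 9.94, 23.8, 18.3 and 21.5 CPM in control and at 8.07, 23.0, 14.6, 25.4 and 12.1 CPM in WD libraries. It was the most variable of the 9 kinases, with the lowest value in WD6, the highest in WD9 and a low control value in CON3. The means were 19.4 ± 5.68 and 16.6 ± 7.33 CPM (SD, n = 5 each), and the log2 fold change was -0.17 (SE 0.296, 95% interval -0.79 to 0.46, edgeR adjusted p = 0.924).

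No library was high or low for all kinases. WD6 was the highest WD library for 3 of the 9 (AKT1, RPS6KB2 and STK11) and the lowest for 4 (RPS6KB1, PDPK1, PRKAA1 and PRKAA2). In the control group CON3 was the highest for 5 of the 9 and the lowest for 1.

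The balance between paralogous kinases was compared within each library, as the log2 ratio of their counts (0.5 added to each), which does not depend on the normalization. The transcript lengths are not known here, so the sign of a ratio does not tell which paralogue is more abundant. Groups were compared by an exact permutation test over every assignment of the libraries to the groups, two-sided, with Benjamini-Hochberg adjustment over the 3 ratios, and the smallest p this design allows is 0.00794. The largest difference was in PRKAA2 over PRKAA1. This ratio was 1.205, -0.25, 0.36, -0.02 and 0.26 in control and -0.75, 0.04, -0.38, 0.27 and -0.33 in WD libraries, so that the 3 lowest libraries were of the WD group and CON2 stood highest. The means were 0.31 ± 0.554 and -0.23 ± 0.396 (SD, n = 5 each), a difference of -0.54 that did not pass the test (exact permutation p = 0.0952, adjusted p = 0.286, interval -1.29 to 0.10). Without CON2 the difference was -0.32 (exact permutation p = 0.206, unadjusted).

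The ratio of RPS6KB2 to RPS6KB1 was above 0 only in CON13 (0.96) and WD6 (1.31). In each of the other 8 it was negative, from -1.41 to -0.27. Its mean was -0.43 ± 0.867 in control and -0.27 ± 0.920 in WD camels (SD, n = 5 each, difference 0.16, interval -1.06 to 1.51, exact permutation p = 0.730, adjusted p = 0.913). Both libraries have few counts outside the 5 dominant IDs, and the part of depth in this ratio was not tested. The ratio of AKT2 to AKT1 was -1.31 ± 0.441 in control and -1.35 ± 0.493 in WD (SD, n = 5 each, difference -0.04, interval -0.78 to 0.78, exact permutation p = 0.913, adjusted p = 0.913). CON13 (-1.88) and WD6 (-2.08) were again at the edge of their groups, at the low end.

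**Figure D3:**
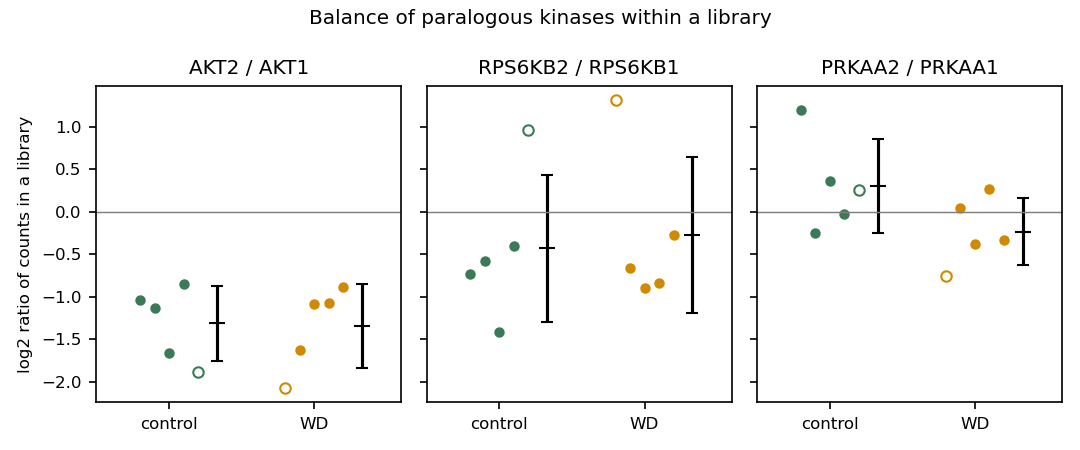
Log2 ratio of the counts of paralogous kinases in each library (points; open for CON13 and WD6), with the mean and SD of each group (black bars, n = 5) and a grey line at 0. The groups overlap in all 3 panels, and in the middle panel CON13 (0.96) and WD6 (1.31) stand above the other 8 libraries.

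A wider list of 76 genes of the same pathways gave 73 that could be tested, without NUAK2, MELK and HUNK, which had too few counts. Of the 73, 43 were higher and 30 lower in WD, with a median log2 fold change of 0.04 against 0.02 over all genes, and 1 passed edgeR's test, beside a background of 0.499% of all genes. At an unadjusted p of at most 0.05 there were 4 of 73 (9.31% of all genes), and the groups did not overlap for 2 of 73 (2.62% of all genes).

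The gene that rose was SIK1 (ENSCDRG00005012900), a salt-inducible kinase of the AMPK-related family that is activated by LKB1 and is itself induced by cAMP signalling. SIK1 was at 13.9, 10.2, 5.97, 9.66 and 14.3 CPM in control and at 33.7, 16.8, 17.4, 26.4 and 31.5 CPM in WD libraries. Every WD library lay above every control library. The means were 10.8 ± 3.43 and 25.1 ± 7.81 CPM (SD, n = 5 each), with a log2 fold change of 1.27 (SE 0.276, 95% interval 0.69 to 1.85, edgeR adjusted p = 0.0476, DESeq2 adjusted p = 0.00451). The call is close to the threshold: it was kept without WD7 (edgeR adjusted p = 0.0433) and lost when any of the other 9 libraries was left out, with adjusted p-values up to 0.178 and log2 fold changes from 1.08 to 1.40. With the RNA integrity number (RIN) as a covariate the edgeR adjusted p was 0.0508, and over all alternatives it ranged from 0.00135 to 0.590. The other 11 tested AMPK-related kinases, among them SIK2 and SIK3, did not pass, and 5 of them were higher and 6 lower in WD.

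The non-catalytic subunits of AMPK showed no called change. The β subunits PRKAB1 and PRKAB2 had log2 fold changes of 0.24 (95% interval -0.29 to 0.77) and -0.35 (-1.03 to 0.34). The γ subunits PRKAG1, PRKAG2 and PRKAG3, which bind AMP, had -0.24 (-0.67 to 0.19), 0.36 (-0.19 to 0.90) and -0.33 (-1.69 to 1.02), and the 5 adjusted p-values lay between 0.728 and 0.930 (edgeR). PRKAG2 was at 26.7, 30.3, 36.3, 39.1 and 7.17 CPM in control and at 34.2, 29.8, 44.7, 41.7 and 38.5 CPM in WD libraries, where CON13 stood apart at the low end and the other 9 libraries overlapped. The log2 fold change of PRKAB2 was -0.0091 without CON4 and -0.55 without CON2, and that of PRKAG2 was 0.19 without CON13. That of PRKAG3 ranged from -0.98 without WD6 to -0.01 without CON2, and this gene had 142 counts over the 10 libraries. With RIN as a covariate PRKAB1 was 0.14 and PRKAB2 -0.16, and with scaling by library totals only PRKAG1 was -0.057.

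Among 10 AMPK subunits and upstream kinases, 5 were higher and 5 lower, and the smallest p was that of CAMKK1 (ENSCDRG00005014884), a calcium/calmodulin-dependent kinase kinase related to the AMPK activator CAMKK2. CAMKK1 was at 26.5, 45.4, 37.2, 30.0 and 21.5 CPM in control and at 29.4, 19.0, 20.0, 16.0 and 10.2 CPM in WD libraries. The groups overlapped only because WD6 reached the level of the controls. The means were 32.1 ± 9.37 and 18.9 ± 7.0 CPM (SD, n = 5 each), with a log2 fold change of -0.83 (SE 0.256, 95% interval -1.36 to -0.29, edgeR adjusted p = 0.232, unadjusted p = 0.00482). Without CON13 and WD6 together it was -1.10 with an edgeR adjusted p of 0.0470, the lowest of its alternatives, which reached 1.0.

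Of the 14 AGC kinases related to AKT and the S6 kinases, 9 were higher and 5 lower in WD and none passed. RPS6KA3 (ENSCDRG00005021577), a p90 ribosomal S6 kinase downstream of ERK, had the smallest p of this list. RPS6KA3 was at 14.9, 19.4, 28.1, 21.1 and 3.59 CPM in control and at 28.9, 40.2, 28.4, 36.2 and 35.4 CPM in WD libraries. The groups did not overlap, although CON4 (28.1 CPM) and WD8 (28.4 CPM) nearly met, and the value of CON13 rests on 3 counts. The log2 fold change was 0.85 (SE 0.272, 95% interval 0.27 to 1.42), with an edgeR adjusted p of 0.261 and an unadjusted p of 0.00623.

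The 18 PI3K lipid kinases and phosphatases had 12 genes higher and 6 lower, with a median log2 fold change of 0.15 and no call. PIK3CD (ENSCDRG00005012267), the catalytic subunit p110δ best known from white blood cells, had the smallest p of this list. PIK3CD was at 17.3, 18.7, 10.3, 14.6 and 7.17 CPM in control and at 30.4, 16.6, 24.7, 18.1 and 38.3 CPM in WD libraries. WD7 and WD9 lay within the controls and WD15 was the highest, as it was for the summed microglia markers, and the part of these markers in the values of PIK3CD was not tested. The log2 fold change was 0.83 (SE 0.272, 95% interval 0.26 to 1.41, edgeR adjusted p = 0.268), and the edgeR adjusted p was 0.0487 with the depth group of the library as a covariate, the lowest of its alternatives, which reached 1.0.

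The 14 targets of AKT, mTOR and AMPK, such as the glycogen synthase kinases, the ULK autophagy kinases and the SREBP factors of lipid synthesis, were split evenly, with 7 higher and 7 lower and log2 fold changes from -0.25 to 0.34. The smallest p of this list was that of ULK2 (log2 fold change 0.34, 95% interval -0.13 to 0.81, edgeR adjusted p = 0.696). The 5 relatives of mTOR in the PI3K-related kinase family had 4 genes higher and 1 lower, led by the DNA damage kinase ATM (0.24, 95% interval -0.16 to 0.64, edgeR adjusted p = 0.755). Leaving out 1 library gave ULK2 log2 fold changes from 0.19 (without CON4, or 0.21 without WD6) to 0.47 (without CON2). For ATM they ran from 0.13 (without CON3) to 0.37. No gene of these lists had an unadjusted p of at most 0.05 (edgeR) or passed DESeq2's Wald test.

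**Figure D4:**
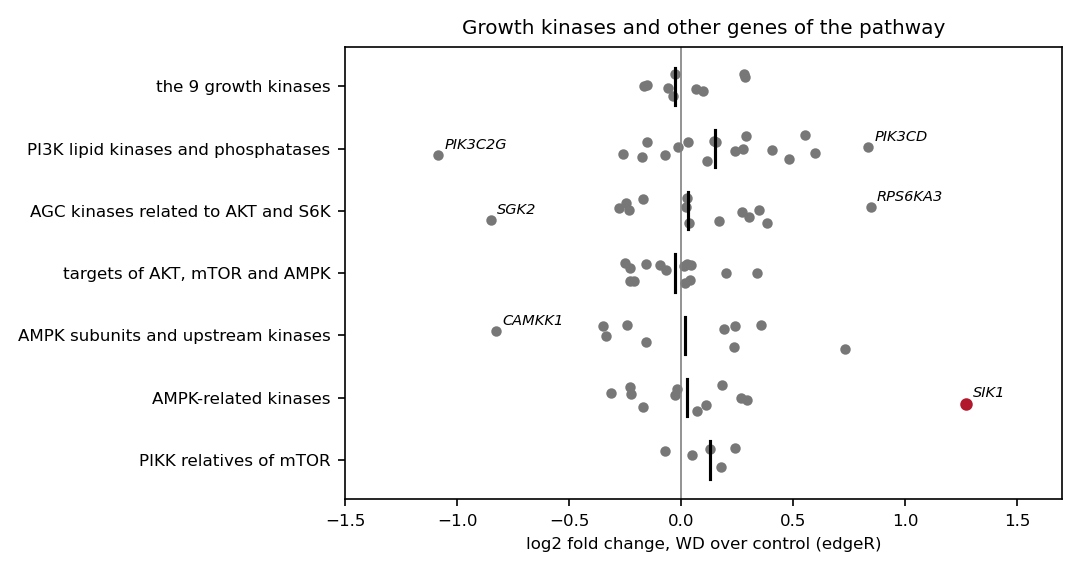
Log2 fold change, WD over control (edgeR), of the 9 growth kinases and of the 73 tested genes of the wider pathway lists (points, red where the adjusted p was at most 0.05), with the median of each list as a black bar. SIK1, at 1.27, is the only red point, and the 9 kinases lie between -0.17 and 0.28.

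Some other regulators and targets of these kinases could be named only through a table that the study sorted by its p-value for this same contrast and of which a part was used here, so they were selected for their difference and are described without a test. RHEB, the GTPase that activates mTOR, was at 17.7, 20.8, 25.7, 18.7 and 13.2 CPM in control and at 27.0, 31.5, 30.0, 40.6 and 26.7 CPM in WD libraries. The groups did not overlap, with means of 19.2 ± 4.58 and 31.2 ± 5.66 CPM (SD, n = 5 each) and a log2 fold change of 0.66. NPRL2, a subunit of the amino acid sensing complex that restrains mTOR (8.41 ± 1.91 to 13.2 ± 2.11 CPM), SESN3, a sestrin that does the same under stress (79.7 ± 21.8 to 115 ± 26.3 CPM), and EIF4EBP2, a translation inhibitor that mTOR phosphorylates (9.60 ± 1.93 to 13.7 ± 3.40 CPM), had log2 fold changes of 0.66, 0.52 and 0.53. DEPTOR, an inhibitor bound to mTOR (17.3 ± 6.61 to 12.9 ± 1.91 CPM), PHLPP2, a phosphatase of AKT (41.7 ± 12.2 to 27.9 ± 8.72 CPM), and MEAK7, an activator of mTOR signalling (14.1 ± 2.40 to 9.50 ± 2.39 CPM), had -0.51, -0.59 and -0.51. Activators and inhibitors of mTOR stood on both sides among these 7 genes. The other subunits of the mTOR complexes and of the TSC complex were not analysed here.

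**Figure D5:**
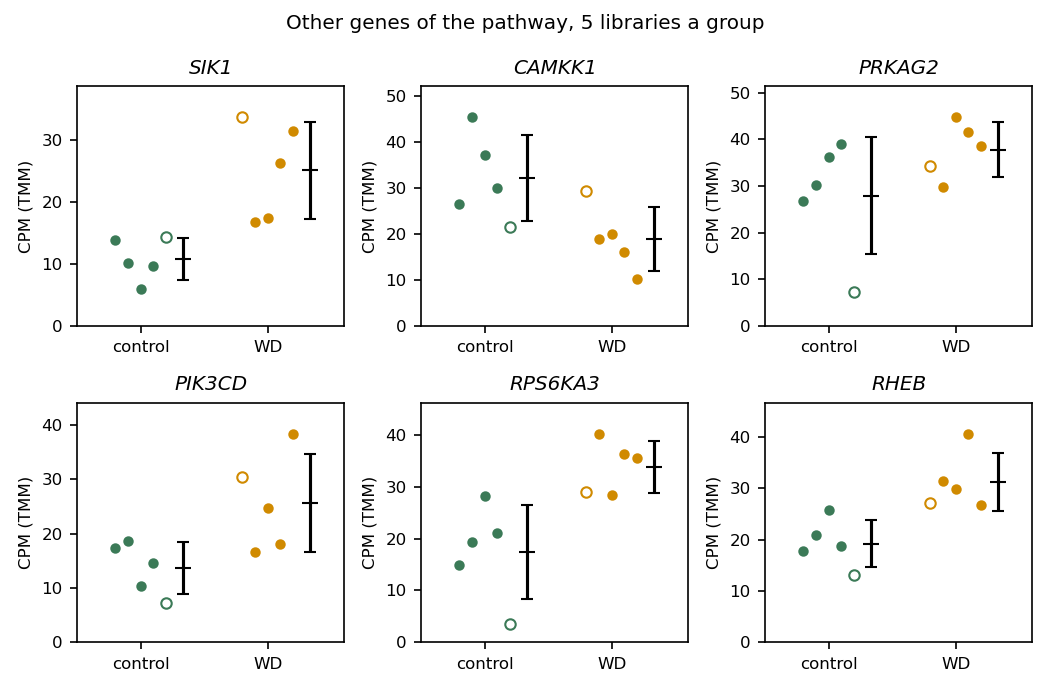
CPM after TMM normalization of 6 other genes of the pathway in every library (points; open for CON13 and WD6), with the mean and SD of each group (black bars, n = 5), on axes that start at 0. The groups are apart for SIK1, RPS6KA3 and RHEB and overlap for CAMKK1, PRKAG2 and PIK3CD, and RHEB was selected for its difference.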

How the data were processed

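Stranded libraries were made from rostral SON RNA, 5 from control and 5 from WD camels, and read from both ends. The authors aligned the reads to the assembly Camdro2 with STAR, counted them per gene with featureCounts and deposited whole-number counts without normalization, 1 column per camel. The strand setting and the treatment of reads shared between genes are not given in the sources used here, so close copies and overlapping genes are uncertain. A deposited table of normalized values was not used.

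Counts were analysed with edgeR 4.0.16 in R 4.3.3: filterByExpr by group (minimum count 10), TMM normalization and a robust quasi-likelihood F test of WD against control, with Benjamini-Hochberg adjustment over 14432 genes and a threshold of 0.05. Levels are CPM after TMM. DESeq2 1.42.0, other scalings and filters, RIN or depth group as a covariate and omission of libraries were alternatives. Depth group splits the libraries into a shallower and a deeper set of 5 by their counts without the 5 dominant IDs. The fit was tested on simulated data. Figures were drawn with matplotlib 3.10.9.

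The 9 kinases and all lists were chosen with earlier results of these data known. Named genes were the 9 kinases, pathway genes that passed the test, the gene with the smallest p in each pathway list, the AMPK β and γ subunits, 7 genes paired only through the table sorted by p, and the 3 genes nearest to MTOR. Results on some genes are not reported here. Intervals of ratios hold the shifts that the permutation test did not reject. No pair of libraries within a group could be one library deposited again (lowest chi-square divided by its degrees of freedom, 8.62). No coordinates are given, since no annotation of Camdro2 was used here.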

Additional observations from a re-analysis of the deposited data

Results flagged for a closer look

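Dixon's test was applied to log2 CPM, or to the log2 ratio, in 60 groups of 5 libraries. The groups were the 9 kinases, the named pathway genes and the 3 paralogue ratios, in control and WD separately. Of these groups, 5 held a library far from the other 4, where about 1 in 20 is flagged by chance. These were RPS6KB1 in WD6 (9.02 CPM, where the other WD libraries had 22.9 to 25.3 CPM), the log2 ratio of RPS6KB2 to RPS6KB1 in WD6 (1.31, above the other WD libraries), PRKAG2 in CON13 (7.17 CPM), DEPTOR in CON13 (5.98 CPM) and SESN3 in WD6 (70.2 CPM). All 5 were in the libraries in which 1 count is worth most, and the ratio and RPS6KB1 share the same counts. The values of PRKAG2 and DEPTOR in CON13 rest on 6 and 5 counts.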

How the results depend on the processing

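Under the 19 alternatives none of the 9 kinases passed the test, and RPS6KB2 and PRKAA1 kept their direction in all of them. MTOR stayed below 0, but was -0.0018 with library totals only. Scaling by library totals only moved the median of all genes from 0.02 to 0.16 on the log2 scale and put 8 of 9 kinases higher in WD, with AKT2 at 0.071, PDPK1 at 0.13, PRKAA2 at 0.097 and STK11 at 0.081, each below the shifted median. With depth group as a covariate AKT2 was 0.015, RPS6KB1 -0.023, STK11 0.0099, PDPK1 -0.12 and PRKAA2 -0.32. With RIN PDPK1 was 0.064, MTOR -0.099, AKT1 0.018, AKT2 -0.19, RPS6KB1 0.13, PRKAA2 -0.093 and STK11 -0.098. The remaining values of the 9 kinases under these covariates moved by less than 1.5 times. Without CON13 and WD6 AKT1 was -0.14, AKT2 -0.12, RPS6KB1 0.11, PRKAA2 -0.017 and STK11 -0.087. In that setting the log2 ratio of AKT2 to AKT1 differed by 0.0028. Leaving out 1 library at a time gave log2 fold changes of -0.13 to 0.18 for AKT1, -0.20 to 0.073 for AKT2, -0.19 to 0.023 for PDPK1, -0.034 to 0.24 for RPS6KB1, -0.22 (without CON2) to -0.11 for MTOR, 0.18 (without WD6) to 0.39 for RPS6KB2, 0.13 (without CON2) to 0.38 for PRKAA1, -0.38 (without WD9) to -0.024 (without WD6) for PRKAA2 and -0.13 (without CON4) to -0.00082 (without WD7) for STK11, and differences in log2 ratio of -0.18 to 0.15 for AKT2 over AKT1, -0.24 to 0.51 for RPS6KB2 over RPS6KB1 and -0.68 to -0.32 (without CON2) for PRKAA2 over PRKAA1. The causes were not tested.

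Of all genes, 72 passed in edgeR, 209 in DESeq2's Wald test, 10 with library totals only, 224 with depth group as a covariate, and 40 (without CON3) to 102 (without WD6) when 1 library was left out, with 42 without CON5 and 48 without WD8. The share of calls higher in WD was 54.2%, but 70.0% with library totals only, 67.3% with RIN and 40.0% without CON2. Of the pathway genes 1 passed, but 0 with library totals only or with RIN, 2 (SIK1 and PIK3CD) with depth group, and 0 to 1 when 1 library was left out. Without CON13 and WD6 the 1 pathway gene was CAMKK1 and not SIK1. Where SIK1 lost its call, its log2 fold change was 1.21 without CON13 and WD6, 1.16 with RIN and 1.34 with library totals only, against 1.27. RPS6KB1 and 8 other named genes gave no value with at least 10 counts in every library. No paired analysis was possible because control and WD libraries share no replicate number. Depth limits RPS6KB1, which had 9 counts in CON13, more than MTOR, which had 90 or more in every library.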
